A study of Mus musculus with 6 samples.

Results

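The genes described here are the 45 members of a list for DNA replication and nucleotide supply, chosen by matching the gene symbols of the deposited tables to the names on the list. All 45 were found among the 18182 genes of the tables, and all 45 passed the filter on low counts that left 13353 genes for testing. The study asked what changes in the transcriptome of a lung cancer cell when bone marrow-derived mesenchymal stem cells (BMSCs) grow beside it. LLC cells, from the mouse line known as Lewis lung carcinoma, were tagged with red fluorescent protein (RFP) and put under the skin of wild type C57BL/6 mice, either alone (LLC alone, agent LLC-RFP alone) or mixed with BMSCs (LLC with BMSCs, agent LLC-RFP with BMSCs). Once tumours had grown, red fluorescent cells were sorted from the primary site and their polyadenylated RNA was sequenced, with 3 libraries per group. The mice of both groups shared genotype and strain, and the study's methods give female mice of 6 weeks for allografts of luciferase-tagged LLC cells. The age of the mice sequenced, the state of the BMSCs at injection and whether a library came from 1 mouse or from several were not given in the sources used here. The label of the co-injected libraries names both the carcinoma cells and mesenchymal stem cells as their source, although the sort was for the red carcinoma cells. Nothing in the labels says that the 3 libraries of a group came from separate mice, so the p values measure the spread between these libraries, which may be technical.

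Chromosomes are copied once per cell cycle from origins that are prepared, or licensed, in G1. The origin recognition complex, Cdc6 and Cdt1 load the ring-shaped MCM helicase onto DNA, and in S phase the GINS complex and Cdc45 join the ring to make the active CMG helicase, after which the polymerases, the sliding clamp PCNA, its loader RFC and the single-strand binding protein RPA extend the new strands. Deoxynucleotides come from ribonucleotide reductase, thymidylate synthase and thymidine kinase, and cyclin E and the E2F factors switch many of these genes on at the entry into S phase, which is why they are often read as a signature of dividing tumour cells.

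Estimated counts on genes summed to between 33476347 and 46189113 per library, and the mean level of the 45 genes in LLC alone ran from 4.49 FPKM for E2f2 to 352 FPKM for Pcna (FPKM, the authors' fragment counts scaled by transcript length and by depth). The FPKM values of all genes summed to between 515662 and 579328 in LLC alone and between 470940 and 489275 in LLC with BMSCs. The median log2 fold change of the 45 genes was nevertheless -0.132 in the fit on counts and -0.132 with a linear model (limma) on log2(FPKM + 0.1). LLC alone replicate 3 stood furthest from the other libraries by transcript length. On the log2 scale, against the mean of all 6 libraries, its median gene deviated by 0.313 in the shortest of 5 length classes. In the longest it deviated by -0.365. The trend also lay between the groups. In the shortest class LLC alone replicates 1 and 2 were at 0.062 and 0.037, and the co-injected libraries at -0.189, -0.091 and -0.112. In the longest they were at -0.022 and -0.003, and at 0.18, 0.104 and 0.131. Among the markers of the sorted cells, Krt8, a keratin of simple epithelia, had 5439 to 8658 counts in each library. Krt18, its partner, had 2 to 8 counts in LLC alone and 37 to 41 in LLC with BMSCs, whereas Epcam, Krt19 and Cdh1 had 5 or fewer throughout. Both Krt8 (log2 fold change 0.19) and Krt18 (2.91) were called higher in LLC with BMSCs. The 8 mesenchymal and fibroblast markers summed to 270 to 326 CPM (counts scaled to a common library total) in LLC alone and to 669 to 701 CPM in LLC with BMSCs, with 7 of the 7 tested higher and Thy1 at 0 to 2 counts throughout. Col3a1 made up most of both sums, while the collagen gene Col1a1 had 2 to 4 counts in LLC alone and 477 to 586 in LLC with BMSCs, and the proteoglycan gene Dcn 8 counts and 492 to 526. The 5 neutrophil markers summed to 0.428 to 0.732 CPM and to 16.7 to 19.8 CPM, with 4 of 4 tested higher and Ly6g at 4 counts or fewer, and the 7 macrophage markers to 23.9 to 29 CPM and to 34.7 to 36.9 CPM, with 5 higher, 1 lower and Adgre1 at 0 in each LLC alone library. The summed levels were 7.7 to 8.35 CPM and 10.4 to 11.4 CPM for 3 erythroid markers (2 higher), 0.69 to 0.877 CPM and 0.904 to 1.03 CPM for 4 endothelial markers (0 of the 1 tested called), and 0.3 to 0.373 CPM and 0.202 to 0.359 CPM for 7 lymphocyte markers (5 in the tables, none tested). The part of other cells in the differences described here was not tested, and in such bulk libraries fewer cells of a type and less RNA per cell cannot be told apart.

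The licensing factors Cdc6 and Cdt1 and the genes of the MCM helicase and RPA were lower in LLC with BMSCs, whereas a few polymerase subunits were higher. Of the 45 genes, 22 were lower and 4 higher at an adjusted p under 0.05 in edgeR's quasi-likelihood test, and 19 were not called. Over all tested genes 31.3% were lower and 31.5% higher (62.9% in either direction), so that 48.9% of the list stood in the lower calls and 8.89% in the higher calls. The median log2 fold change was -0.13 over the list and 0.01 over all tested genes. The changes were modest: none of the 45 reached an absolute log2 fold change of 1, 11 were lower by at least 0.5 against a background of 18%, and 2 were higher by at least 0.5 against a background of 18.8%. In FPKM the 3 libraries of one group lay wholly apart from those of the other for 32 of the 45 genes (70.6% of all tested genes), with 23 lower in LLC with BMSCs (background 33.7%) and 9 higher (background 37%). Without LLC alone replicate 3 the counts were 23 lower and 7 higher (33.5% and 35% of all genes tested in that fit), and with each library's trend over transcript length removed they were 23 lower and 10 higher (34.7% and 35.1%). In the latter, Gins4, Prim1, Prim2, Rfc3, Rfc5 and Tk1 were newly called higher, Rfc1, Rrm1 and E2f2 newly called lower, and Rfc4 and Rrm2 lost their call. With the trends over length and GC content both removed, 26 were lower and 13 higher, beside 35.3% and 35.9% of all tested genes. No call was lost in that fit. With LLC alone replicates 1 and 2 summed as 1 library and LLC with BMSCs replicates 2 and 3 summed likewise, 18 of the 26 called genes remained called. A gene on the opposite strand overlaps Orc2, Orc6, Mcm7, Gins2, Rfc2, Rfc4, Rfc5, Fen1, Tk1 and Ccne2. Since the strand setting of the counting was not given, reads that fall within such an overlap cannot be told apart.

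**Figure D1:**
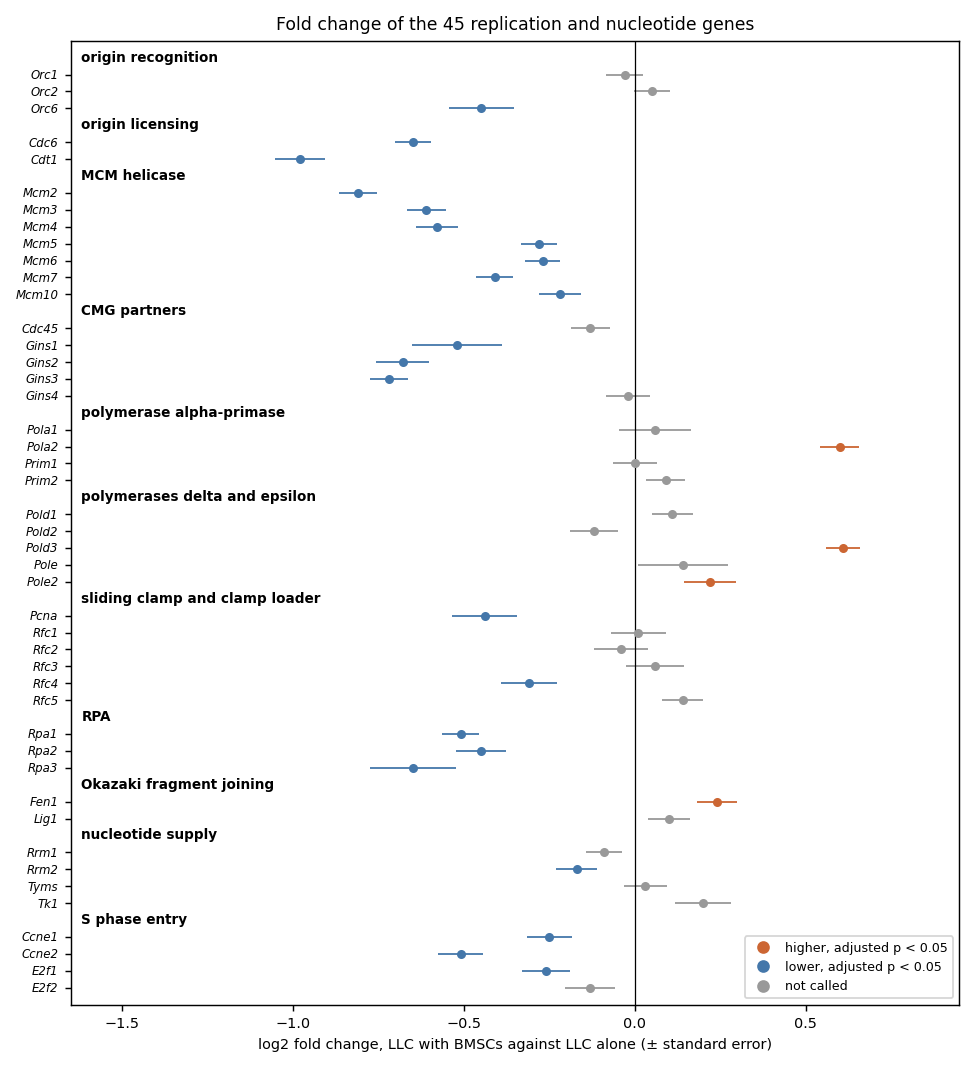
Log2 fold change (horizontal axis) of each of the 45 genes in LLC with BMSCs against LLC alone, grouped by role; points are edgeR estimates from 3 libraries per group, bars are ± 1 standard error and colours mark the calls. The 2 licensing genes, all 7 MCM genes and all 3 RPA genes lie left of 0, and the calls to the right are Pola2, Pold3, Pole2 and Fen1.

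Because E2F factors bind a short, well known DNA word, the sequences before and just after the transcription starts were searched for it. RefSeq promoter windows (build GRCm38.p6, 250 bases before to 50 after each start) were found for 37 of the 45 genes, as 44 windows. The words searched were TTTCCCGC, TTTCGCGC, TTTGCCGC and TTTGGCGC on both strands, and words on opposite strands may overlap. A word was present in 34.1% of the members' windows and in 2.26% of all 32851 windows in the table. Those windows cover 27025 genes, many of them not tested here, whereas all members were tested, so the 2 shares are of unlike sets. A word was found for 7 of the 18 lower genes with a window, for 2 of the 4 higher and for 6 of the 15 not called. Among all tested genes with a window, those with a word were lower in 30.5% and higher in 33.6% (479 genes), and those without one in 32.1% and 31.1% (9725 genes). The stretches that hold these words are printed for called genes of both directions and for 2 genes that were not called, so that they can be set against each other. Each is written 5′ to 3′ on the strand of its gene, with the matched words in capitals, as 90 bases before the start or, where the word lay past the start, as 28 bases that lie past it. A match describes these letters and is not a measured binding site.
The first set belongs to genes that were lower in LLC with BMSCs.
Mcm3 (chr1:20820267-20820294, minus strand): gGCGGGAAAacttgggaagtTTTGGCGC
Mcm5 (chr8:75109317-75109406, plus strand): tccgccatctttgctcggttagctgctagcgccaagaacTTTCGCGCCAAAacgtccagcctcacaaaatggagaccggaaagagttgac
Mcm6 (chr1:128359736-128359825, minus strand): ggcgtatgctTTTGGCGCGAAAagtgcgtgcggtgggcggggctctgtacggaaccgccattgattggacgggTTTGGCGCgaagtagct
Mcm7 (chr5:138172000-138172089, minus strand): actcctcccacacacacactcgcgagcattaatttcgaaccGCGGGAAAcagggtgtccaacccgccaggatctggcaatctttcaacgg
Cdc6 (chr11:98907972-98908061, plus strand): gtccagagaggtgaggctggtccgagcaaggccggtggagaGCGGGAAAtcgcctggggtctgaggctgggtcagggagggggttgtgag
Cdt1 (chr8:122568037-122568064, plus strand): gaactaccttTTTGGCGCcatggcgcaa
Gins3 (chr8:95633469-95633558, plus strand): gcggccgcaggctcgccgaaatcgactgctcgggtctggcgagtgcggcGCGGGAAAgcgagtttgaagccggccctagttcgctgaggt
Pold3 and Pole2 were higher.
Pold3 (chr7:100121468-100121495, minus strand): agcgaagctgTTTCCCGCcggcgggagc
Pole2 (chr12:69228163-69228190, minus strand): gtcggcggtgGCGCCAAAtcgcgaacat
Orc1 and Pola1 were not called.
Orc1 (chr4:108579364-108579453, plus strand): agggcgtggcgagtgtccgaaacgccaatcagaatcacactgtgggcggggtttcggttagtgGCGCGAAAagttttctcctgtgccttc
Pola1 (chrX:93632245-93632334, minus strand): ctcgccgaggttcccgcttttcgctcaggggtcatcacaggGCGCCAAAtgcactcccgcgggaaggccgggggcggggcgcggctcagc
Mcm5 and Mcm6 each carried a pair of overlapping words on opposite strands before the start, Mcm3 had 2 words past its start, Mcm6 had a further word nearer its start, and the other stretches held 1 word each. The window of Mcm7 held a further word past its start, outside the stretch printed here.

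The origin recognition complex marks origins, and its subunits did not move together. Orc1, the large subunit that binds ATP, was at 9.81, 10.1 and 9.55 FPKM in LLC alone and at 9.48, 10.1 and 9.73 FPKM in LLC with BMSCs, so the groups overlapped (log2 fold change -0.03 ± 0.055 SE). Orc2 gave 66.2, 67.2 and 63.6 FPKM against 69.4, 68.8 and 70.0 FPKM, with every co-injected library higher and a log2 fold change of 0.05 that was not called. Orc6, the smallest subunit, was lower in each co-injected library, with 71.9, 71.3 and 83.5 FPKM in LLC alone and 49.8, 59.9 and 58.8 FPKM in LLC with BMSCs. It fell by 0.45 ± 0.095 SE on the log2 scale (edgeR adjusted p = 0.00398), and by 0.37 without LLC alone replicate 3.

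Both licensing factors fell. Cdt1 (NCBI gene 67177), which brings the MCM ring to the origin, was the most reduced of the 45 genes, with 90.8, 93.2 and 94.4 FPKM in LLC alone and 51.6, 47.1 and 43.9 FPKM in LLC with BMSCs. The groups lay far apart, and the level in the co-injected libraries was 0.505 times that in LLC alone (log2 fold change -0.98 ± 0.073 SE, edgeR adjusted p = 2.22e-05). Geminin, an inhibitor of Cdt1, is encoded by Gmnn, which was named here because of Cdt1. Gmnn stood at 48.7, 47.6 and 56 FPKM in LLC alone and 53.3, 57.1 and 58.2 FPKM in LLC with BMSCs and was not called (log2 fold change 0.12 ± 0.079 SE, adjusted p = 0.2), but with the trends over length and GC content removed it was called higher by 0.35 (adjusted p = 5.91e-05). The ratio of Cdt1 to Gmnn FPKM was thus 1.84 ± 0.138 (SD, n = 3) in LLC alone and 0.849 ± 0.109 (SD, n = 3) in LLC with BMSCs, and the ranges did not overlap. Cdc6 (NCBI gene 23834), the ATPase that works with Cdt1 in loading, gave 16.7, 17.0 and 16.3 FPKM against 10.5, 11 and 10.9 FPKM, a separation many times the spread within either group. It fell by 36.2% (log2 fold change -0.65 ± 0.053 SE, adjusted p = 3.61e-05).

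The 6 subunits of the MCM ring, Mcm2 to Mcm7, and the helicase activation factor Mcm10 were all lower, but by unequal amounts. Summed over Mcm2 to Mcm7, the FPKM values were 755, 767 and 733 in LLC alone and 558, 547 and 541 in LLC with BMSCs. Mcm2 (NCBI gene 17216) fell most, from 91.5, 88.8 and 86.9 FPKM to 53.1, 50.7 and 50.5 FPKM, with a log2 fold change of -0.81 ± 0.056 SE (adjusted p = 1.43e-05). Mcm3, the most abundant subunit per length, went from 216, 218 and 206 FPKM to 147, 138 and 140 FPKM, with no overlap between the groups (log2 fold change -0.61 ± 0.057 SE, adjusted p = 6.72e-05). Mcm4 followed closely, at 81.8, 88.0 and 78.3 FPKM and then 55.1, 57.1 and 56.4 FPKM (log2 fold change -0.58 ± 0.061 SE). Mcm7 fell by 0.41 on the log2 scale, from 112, 112 and 109 FPKM to 86.5, 85.3 and 81.6 FPKM.

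The smallest reductions in the ring were those of Mcm5 and Mcm6. Mcm5 stood at 76.4, 77.4 and 77.3 FPKM in LLC alone and at 64.7, 65.5 and 62.6 FPKM in LLC with BMSCs (log2 fold change -0.28 ± 0.052 SE, adjusted p = 0.00209). Mcm6, with the highest level after Mcm3, stood at 177, 183 and 176 FPKM and at 151, 150 and 150 FPKM (log2 fold change -0.27 ± 0.051 SE, adjusted p = 0.00249). With the close pairs of libraries summed, neither was called (adjusted p = 0.0549 for Mcm5 and 0.0687 for Mcm6). Although both were separated from LLC alone in every library, their log2 fold changes were nearer to 0 than that of Mcm2, and the Mcm2 to Mcm6 ratio of FPKM changed from 0.516, 0.485 and 0.494 to 0.351, 0.339 and 0.337. The ratio of Mcm2 to Mcm5 went from 1.16 ± 0.038 (SD, n = 3) to 0.801 ± 0.0237 (SD, n = 3). Each gave p = 0.1 in a two-sided exact permutation test, the smallest value that 3 libraries against 3 allow. After Benjamini-Hochberg adjustment over the 12 ratios of FPKM computed, that value was 0.15. The ratios of Cdt1 to Gmnn, Gins3 to Gins4, Pola2 to Prim2 and Pold3 to Pold1 gave the same values. These pairs set genes with unlike fold changes against each other, so the ratios restate those fold changes and add no separate support. Mcm10, which binds the ring as it is activated, had 33.2, 34.1 and 30.3 FPKM and then 28.7, 28.5 and 27.7 FPKM, a fall of 0.22 ± 0.062 SE (adjusted p = 0.0151) that was lost in 5 of the 17 alternatives. Leaving out LLC alone replicate 1 or 2 or LLC with BMSCs replicate 2 or 3 each ended the call of Mcm10, with adjusted p between 0.0545 and 0.0719.

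**Figure D2:**
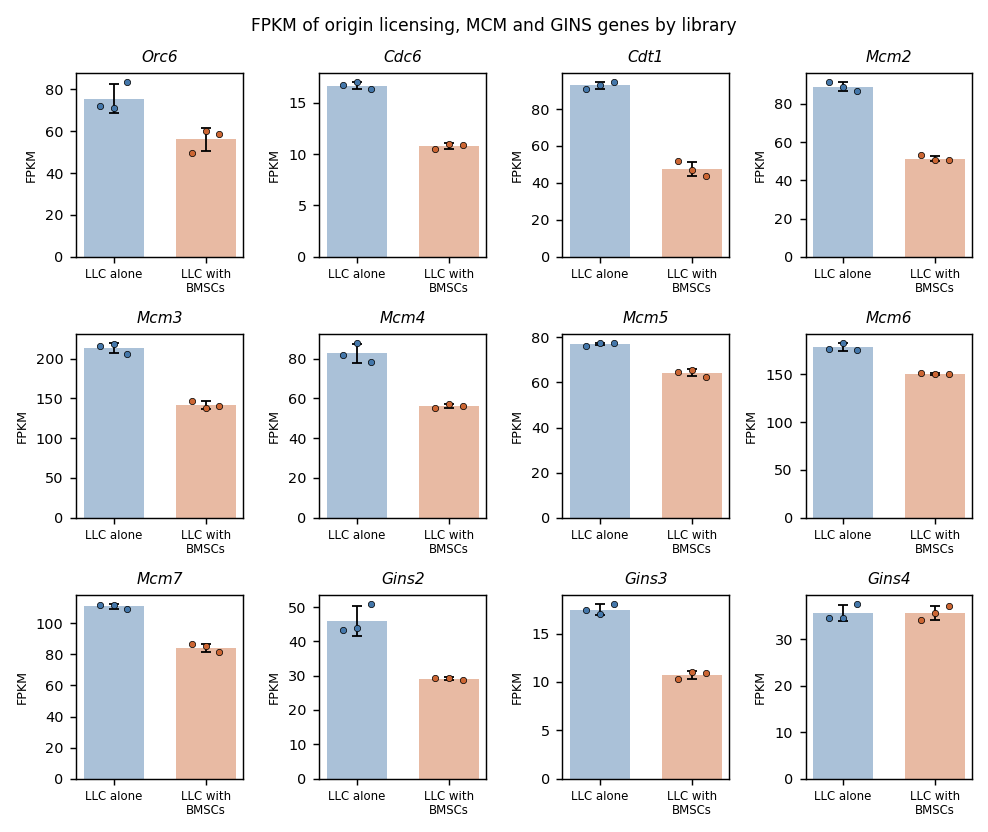
FPKM (vertical axes, from 0) of Orc6, Cdc6, Cdt1, Mcm2 to Mcm7, Gins2, Gins3 and Gins4 in LLC alone (blue) and LLC with BMSCs (orange); points are the 3 libraries of a group in replicate order, bars the means and error bars ± 1 SD. Cdt1 drops from 92.8 to 47.6 FPKM on average, while Gins4 is at 35.7 FPKM in both groups.

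The partners that turn the MCM ring into the working CMG helicase were split. GINS is a complex of 4 small proteins, and 3 of their genes fell while Gins4 did not pass the test. Gins3 gave 17.4, 17.0 and 18.1 FPKM in LLC alone and 10.3, 11 and 10.9 FPKM in LLC with BMSCs, which is a log2 fold change of -0.72 ± 0.056 SE (adjusted p = 2.63e-05). Gins2 had 43.3, 43.8 and 51.0 FPKM in LLC alone and 29.3, 29.4 and 28.8 FPKM in LLC with BMSCs. It fell by 0.68 ± 0.077 SE on the log2 scale (adjusted p = 1.81e-04) and by 0.43 with the length trend removed. Gins1 went from 22.8, 24.1 and 28.7 FPKM to 14.8, 19.6 and 19.5 FPKM, and its reduction of 0.52 ± 0.131 SE (adjusted p = 0.00988) shrank to 0.28 with the length trend removed. Gins4 values overlapped, at 34.7, 34.6 and 37.7 FPKM and at 34.2, 35.8 and 37.1 FPKM (log2 fold change -0.02 ± 0.063 SE), and with the length trend removed it was called higher by 0.17 (adjusted p = 0.00829). Correspondingly, the ratio of Gins3 to Gins4 FPKM, 0.5, 0.491 and 0.48 in LLC alone, was 0.303, 0.307 and 0.294 in LLC with BMSCs. Cdc45, the remaining CMG partner, had 29.5, 31.6 and 31.3 FPKM against 27.2, 29.0 and 28.2 FPKM, apart in each library yet not called (log2 fold change -0.13 ± 0.057 SE, adjusted p = 0.0781).

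The polymerases that start and extend DNA strands gave no lower call: 3 genes were higher and the others were not called. Polymerase alpha-primase lays down the first primer, and its accessory B subunit, encoded by Pola2 (NCBI gene 18969), was higher in each co-injected library, with 29.6, 30.7 and 31.9 FPKM in LLC alone and 47.4, 47.8 and 46.9 FPKM in LLC with BMSCs. It rose 1.52-fold (log2 fold change 0.60 ± 0.057 SE, adjusted p = 7.02e-05). The catalytic subunit Pola1 had 27.0, 27.9 and 20.9 FPKM and 26.3, 26.6 and 27.1 FPKM, with LLC alone replicate 3 as the low value (log2 fold change 0.06 ± 0.105 SE). Neither primase subunit was called, with log2 fold changes of 0.00 ± 0.065 SE for Prim1 and 0.09 ± 0.056 SE for Prim2, which passed the test without LLC alone replicate 3 (0.12, adjusted p = 0.0455). Pola2 FPKM divided by Prim2 FPKM accordingly went from 0.958 ± 0.0296 (SD, n = 3) to 1.36 ± 0.0273 (SD, n = 3).

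Polymerase delta works mainly on the lagging strand and polymerase epsilon on the leading strand. Pold3 (NCBI gene 67967), an accessory subunit of delta that binds PCNA, had the largest rise of the 45 genes. It was at 10.4, 10.5 and 10.5 FPKM in LLC alone and at 16.2, 16.4 and 16.0 FPKM in LLC with BMSCs, a 1.53-fold difference (log2 fold change 0.61 ± 0.050 SE, adjusted p = 3.33e-05). The catalytic subunit Pold1, at 21.2, 21.8 and 20.9 FPKM and 24.4, 23.0 and 22.5 FPKM, was higher in each co-injected library but missed the threshold (log2 fold change 0.11 ± 0.059 SE, adjusted p = 0.138), as did Pold2, another subunit of delta whose groups overlapped (log2 fold change -0.12 ± 0.071 SE). The Pold3 to Pold1 ratio of FPKM moved from 0.489, 0.481 and 0.501 to 0.666, 0.711 and 0.712, without overlap. Pole2, an accessory subunit of epsilon, had 21.2, 22.0 and 25.1 FPKM and 25.7, 27.5 and 27.6 FPKM. Its rise of 0.22 ± 0.077 SE (adjusted p = 0.0362) was lost when LLC alone replicate 1 or 2 or any co-injected library was left out, with adjusted p between 0.0521 and 0.125, whereas with the length trend removed it was 0.36. Pole, the catalytic subunit and the longest transcript of the list, was at 19.8, 20.0 and 14.1 FPKM and 21.7, 19.5 and 19.2 FPKM, again with LLC alone replicate 3 as the low library (log2 fold change 0.14 ± 0.132 SE).

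**Figure D3:**
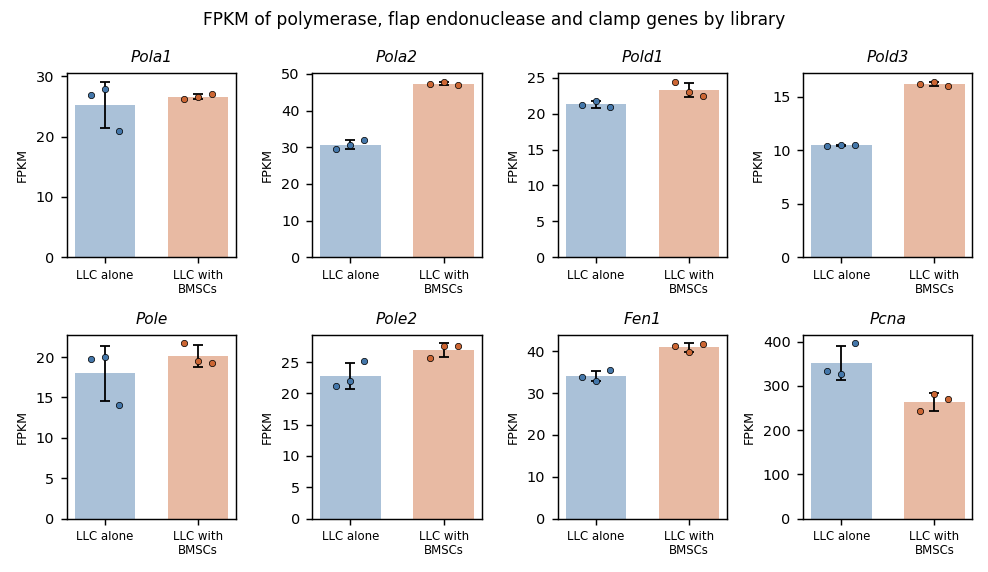
FPKM (vertical axes, from 0) of Pola1, Pola2, Pold1, Pold3, Pole, Pole2, Fen1 and Pcna in LLC alone (blue) and LLC with BMSCs (orange); points are the 3 libraries of a group in replicate order, bars the means and error bars ± 1 SD. Pola2 goes from 30.7 to 47.4 FPKM and Pold3 from 10.4 to 16.2 FPKM on average, while the single low points of Pola1 and Pole belong to LLC alone replicate 3.

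PCNA is the ring that tethers the polymerases to DNA, and its gene was the most abundant of the 45 per length. Pcna (NCBI gene 18538) measured 333, 327 and 396 FPKM in LLC alone and 242, 281 and 269 FPKM in LLC with BMSCs, and it fell by 26.1% (log2 fold change -0.44 ± 0.094 SE, adjusted p = 0.00436). The reduction was 0.34 on the log2 scale without LLC alone replicate 3, the highest library, and 0.23 with the length trend removed, and it remained called in both. RFC, the loader that opens the PCNA ring, has 5 subunits, of which Rfc4 alone was called. Rfc4 had 41.3, 39.8 and 46.7 FPKM and then 32.6, 35.3 and 36.9 FPKM (log2 fold change -0.31 ± 0.081 SE, adjusted p = 0.0112), and with the length trend removed its log2 fold change of -0.09 missed the threshold (adjusted p = 0.0845). With the length and GC trends both removed Rfc4 was at -0.13 and called lower (adjusted p = 0.0127). The log2 fold changes of the other loader genes were 0.01 for Rfc1, -0.04 for Rfc2, 0.06 for Rfc3 and 0.14 for Rfc5, none called, with Rfc5 at an adjusted p of 0.0694 and, without LLC alone replicate 3, of 0.0128.

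RPA coats the single strands that the helicase exposes, and the genes of its 3 subunits all fell. Rpa1, the large subunit that binds DNA, was at 94.1, 93.0 and 92.7 FPKM in LLC alone and at 68.5, 66.9 and 64.0 FPKM in LLC with BMSCs (log2 fold change -0.51 ± 0.055 SE, adjusted p = 1.43e-04). Rpa2, the subunit phosphorylated under replication stress, gave 49.1, 48.8 and 56.4 FPKM and 37.4, 39.1 and 38.5 FPKM, a log2 fold change of -0.45 ± 0.074 SE (adjusted p = 0.00127) that was -0.29 with the length and GC trends removed. Rpa3, the smallest subunit and the shortest transcript of the list at 655 bases, was more scattered, with 60.2, 62.2 and 78.6 FPKM against 38.1, 48.8 and 43.7 FPKM. It fell by 0.65 ± 0.126 SE (adjusted p = 0.00276), by 0.50 without LLC alone replicate 3 and by 0.31 with the length trend removed. The ratio of Rpa1 to Rpa2 overlapped between the groups, at 1.82 ± 0.155 (SD, n = 3) and 1.73 ± 0.088 (SD, n = 3).

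The enzymes that finish Okazaki fragments on the lagging strand did not fall. Fen1, the nuclease that trims the flap at the end of each fragment, was at 33.8, 33.0 and 35.5 FPKM in LLC alone and at 41.3, 39.8 and 41.7 FPKM in LLC with BMSCs. All co-injected libraries were above all LLC alone libraries, and the rise was 1.18-fold (log2 fold change 0.24 ± 0.058 SE, adjusted p = 0.00813). It was not called with the close pairs summed (adjusted p = 0.118). Lig1, the ligase that seals the nick, had 35.6, 37.3 and 33.8 FPKM and 40.2, 38.4 and 37.4 FPKM, with the groups just apart and the test not passed (log2 fold change 0.10 ± 0.062 SE, adjusted p = 0.196).

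Nucleotide supply moved little. Ribonucleotide reductase turns ribonucleotides into deoxynucleotides, and its small subunit Rrm2 had 258, 284 and 274 FPKM in LLC alone and 235, 250 and 250 FPKM in LLC with BMSCs. Rrm2 fell by 11.2% (log2 fold change -0.17 ± 0.060 SE, adjusted p = 0.036), a call that was lost in 10 of the 17 alternatives. Without LLC alone replicate 2 or any 1 co-injected library, its adjusted p lay between 0.0855 and 0.12, and with the length trend removed its log2 fold change was -0.10. With the length and GC trends both removed Rrm2 was at -0.15 and called lower (adjusted p = 0.0169). The large subunit Rrm1 was at 78.8, 78.4 and 74.4 FPKM and 73.3, 73.4 and 74.6 FPKM, overlapping and not called (log2 fold change -0.09 ± 0.053 SE), though it was called lower without LLC alone replicate 3 (log2 fold change -0.11, adjusted p = 0.0438). Tyms, the thymidylate synthase, gave 27.2, 25.9 and 28.8 FPKM and 25.1, 28.8 and 27.0 FPKM with a log2 fold change of 0.03 ± 0.063 SE. Thymidine kinase 1, encoded by Tk1 (NCBI gene 21877), salvages thymidine in S phase, and it stood at 67.8, 65.4 and 79.8 FPKM in LLC alone and at 78.9, 83.5 and 83.1 FPKM in LLC with BMSCs. The groups overlapped through LLC alone replicate 3 and the log2 fold change of 0.20 ± 0.081 SE was not called (adjusted p = 0.0587). Without that library it was 0.29 (adjusted p = 4.73e-04), and with the length trend removed 0.38 (adjusted p = 2.02e-05).

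The listed transcripts of Tk1 went in opposite directions. RefSeq transcript NM_009387 carried most of the signal and went from 58.5, 55.7 and 67.6 FPKM to 75.1, 79 and 78.8 FPKM. Transcript NM_001271729 went the other way, from 8.69, 8.97 and 11.8 FPKM in LLC alone to 2.64, 3.52 and 3.48 FPKM in LLC with BMSCs. Its share of all Tk1 FPKM was 13.8% ± 0.971 (SD, n = 3) and then 3.92% ± 0.496 (SD, n = 3), with no overlap. Of the 45 genes, 26 had 1 listed transcript and 19 had 2 or more, and in 8 of the 19 the share of some transcript was apart between the groups, against 45.1% of all 6214 tested genes with 2 or more transcripts. For Cdc45, NM_001161623 made up 27.1%, 35.8% and 35.9% and then 26.7%, 20.8% and 27%, so the groups were only just apart. For Tyms, NM_021288 made up 40.5%, 43.1% and 29.7% and then 52.1%, 46% and 50%, with LLC alone replicate 3 the lowest. Transcript values divide shared reads by estimation and were not tested.

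**Figure D4:**
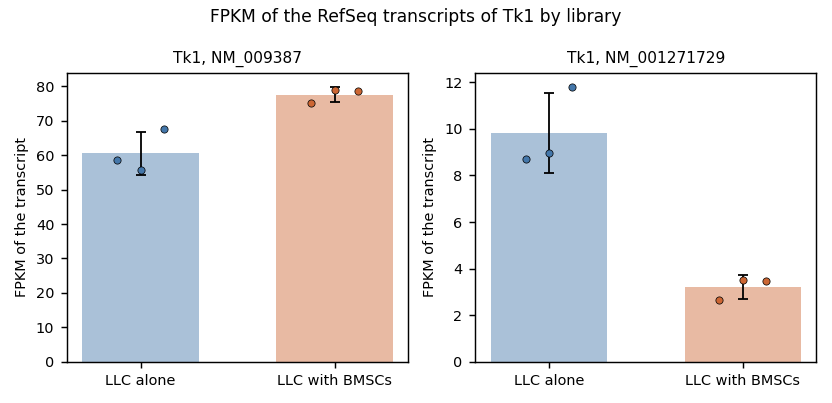
FPKM (vertical axes, from 0, on different scales) of the Tk1 transcripts NM_009387 and NM_001271729 in LLC alone (blue) and LLC with BMSCs (orange); points are the 3 libraries of a group in replicate order, bars the means and error bars ± 1 SD. The first goes from 60.6 to 77.6 FPKM on average and the second from 9.81 to 3.21 FPKM.

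Among the genes that drive entry into S phase, 3 of 4 fell. Cyclin E activates Cdk2 at the G1 to S border, and Ccne2 (NCBI gene 12448) was at 25.4, 25.6 and 22.4 FPKM in LLC alone and at 17.3, 17.7 and 17.2 FPKM in LLC with BMSCs (log2 fold change -0.51 ± 0.067 SE, adjusted p = 3.67e-04). Ccne1, its close relative, gave 21.7, 23.4 and 24.8 FPKM and 19.4, 20.3 and 19.8 FPKM, a log2 fold change of -0.25 ± 0.065 SE (adjusted p = 0.0108). That of Ccne1 was -0.16 with the length trend removed, and it was not called with the close pairs summed (adjusted p = 0.0622). E2f1, an activator of replication genes, had 31.7, 30.9 and 32.9 FPKM and 28.9, 25.9 and 25.9 FPKM, and it fell by 16.8% (log2 fold change -0.26 ± 0.069 SE, adjusted p = 0.0111). That call was lost when LLC with BMSCs replicate 2 (adjusted p = 0.0577) or replicate 3 (adjusted p = 0.0566) was left out. E2f2, another activator and the least abundant of the 45 genes per length, was at 4.64, 4.57 and 4.27 FPKM and 4.21, 4.45 and 3.95 FPKM and was not called (log2 fold change -0.13 ± 0.073 SE).

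Genes that work beside the 45 were read from the same test as 7 lists, over which 38 of 118 tested genes were higher, 37 lower and 43 not called, with a median log2 fold change of 0.03. These counts are near the 31.5% higher and 31.3% lower of all tested genes, against which the counts of each list are to be read. Of 33 other replication factors, 8 were higher and 9 lower. Dna2, a nuclease and helicase of flap and break processing, rose most in that list (log2 fold change 1.25 ± 0.095 SE), followed by the loader subunit Chtf18 (0.69), whereas the helicase Recql4, which acts at origin firing, fell by 0.91 ± 0.073 SE and the MCM relative Mcm8 by 0.66. Of 12 chromatin factors coupled to replication, 4 were higher and 1 lower, with Supt16, a subunit of the histone chaperone FACT, at 0.46 (0.30 with the length and GC trends removed) and the lamin gene Lmnb1 at 0.45, and with the histone chaperone Asf1a lower by 0.49. The E2F and RB family had 7 of 15 genes higher and 3 lower. The repressors E2f8 (0.74 ± 0.084 SE) and E2f7 (0.62 ± 0.102 SE) led the rises, opposite in sign to the activator E2f1. Another activator, E2f3, named here because of E2f1, was at 0.17 and not called. Lin37, of the repressive DREAM complex, and the repressor E2f6 had log2 fold changes of -0.51 and -0.41. With the length and GC trends removed Lin37 was at -0.22 and no longer called (adjusted p = 0.0601). In the replication checkpoint list, 5 of 12 genes were higher, with the kinase gene Atr at 0.73 (0.46 with the same trends removed) and the cyclin gene Ccna2 at 0.43, and 4 were lower, with Rad9a at -0.69 and Rad1 at -0.52, both subunits of the checkpoint clamp.

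Enzymes that make and modify nucleotides were also mixed by pathway. Of 17 genes for new synthesis of purines and pyrimidines, 9 were higher and 6 lower. Cad, which catalyses the first steps of pyrimidine synthesis, was at 54.1, 54.9 and 36.3 FPKM and 79, 67.5 and 68.5 FPKM (log2 fold change 0.54 ± 0.154 SE, and 0.36 with the length and GC trends removed), and Prps2, which makes the ribose phosphate donor, rose by 0.53. Umps, which completes the pyrimidine UMP, fell by 0.68 ± 0.051 SE and the purine enzyme Atic by 0.52. In the deoxynucleotide and one-carbon list 10 of 18 genes were lower and 2 higher, beside 31.3% and 31.5% of all tested genes, with a median log2 fold change of -0.40. With the length and GC trends removed, 10 were lower and 4 higher, beside 35.3% and 35.9%. In it the mitochondrial folate enzyme Mthfd2 went from 255, 267 and 276 FPKM to 131, 139 and 140 FPKM (log2 fold change -0.98 ± 0.059 SE), and Dtymk, the thymidylate kinase that follows Tyms and Tk1, from 240, 243 and 307 FPKM to 124, 130 and 124 FPKM (log2 fold change -0.88 ± 0.095 SE, and -0.57 with the length and GC trends removed). The exceptions were Samhd1, which breaks deoxynucleotides down, at 0.44, and the mitochondrial thymidine kinase Tk2 at 0.22. Of 11 salvage and transport genes, 3 were higher and 4 lower. Upp1, the uridine phosphorylase, rose from 3.97, 3.36 and 4.06 FPKM to 19.3, 19.6 and 19.6 FPKM (log2 fold change 2.33 ± 0.088 SE) and Cda, the cytidine deaminase, by 1.49, whereas the thymidine phosphorylase Tymp fell by 0.90 and the purine salvage enzyme Hprt by 0.68.

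Genes of mitosis, read as a second set of cell cycle genes, went the opposite way to the licensing genes. Of 20 mitotic genes, 14 were higher and 0 lower, beside 31.5% and 31.3% of all tested genes, with a median log2 fold change of 0.42. With the trends over transcript length and GC content removed, 18 were higher and 0 lower, beside 35.9% and 35.3%. Cenpf, a kinetochore protein, was at 14.4, 16.2 and 9.36 FPKM in LLC alone and at 33.2, 30.9 and 33.3 FPKM in LLC with BMSCs (log2 fold change 1.26 ± 0.178 SE, adjusted p = 5.48e-04). Cenpe, a kinetochore motor, was at 15.8, 17.5 and 11.5 FPKM and 34.2, 32.9 and 36.2 FPKM (log2 fold change 1.19 ± 0.140 SE, adjusted p = 2.21e-04). Both are long transcripts with their lowest value in LLC alone replicate 3, and with the length and GC trends removed their log2 fold changes were 0.95 and 0.89. The difference between the lists was not tested.

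**Figure D5:**
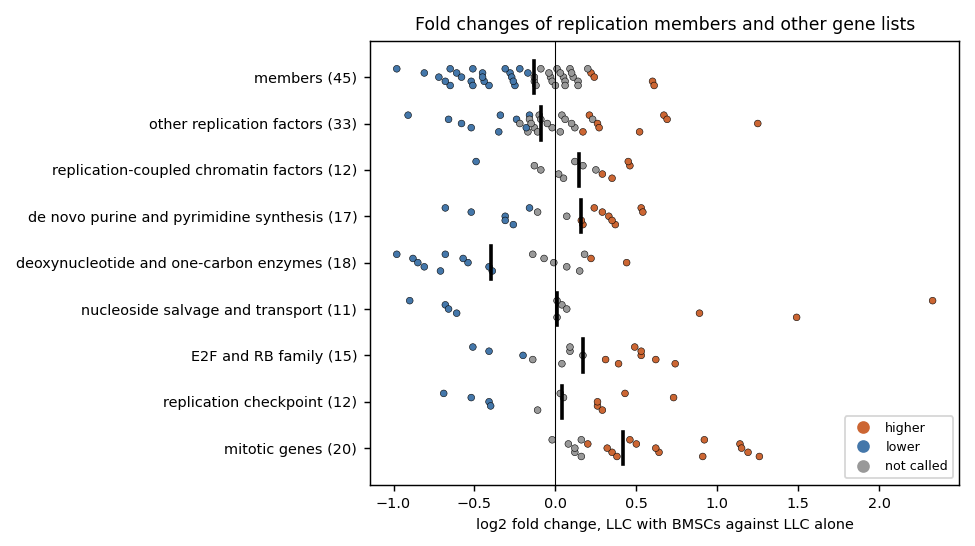
Log2 fold change (horizontal axis) in LLC with BMSCs against LLC alone for the 45 genes and for 8 other gene lists (rows, number tested in brackets); points are genes, vertical bars list medians and colours the edgeR calls. The 45 genes have a median of -0.13, the deoxynucleotide and one-carbon enzymes -0.40 and the mitotic genes 0.42.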

How the data were processed

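Sorted LLC cells had been sequenced in 3 libraries per group, and groups and replicate numbers were taken from the sample labels. According to the study's methods, poly-A RNA was sequenced as paired reads on the BGISEQ-500, whereas the labels name Illumina protocols. The submitters' processing notes name HISAT, StringTie, Cufflinks, GATK and the build mm8, and the strand setting of the counting was not given in the sources used here. The authors deposited estimated counts per gene, which need not be whole, and FPKM values per gene and per transcript, and the FPKM values of their table of the whole series equalled those of the single libraries.

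These counts, rounded, were tested with edgeR 4.0.16 in R 4.3.3 (TMM scaling, default filter on low counts, quasi-likelihood test, Benjamini-Hochberg adjustment over 13353 genes, threshold 0.05), at depths of 33476347 to 46189113 counts per library. Standard errors (SE) were absolute log2 fold changes over the root of the F statistic. The common biological coefficient of variation was 9.92%. Alternatives used DESeq2 1.42.0, limma 3.58.1 on log2(FPKM + 1) or log2(FPKM + 0.1), other scalings and filters, spline offsets over length and GC content, libraries left out or summed, and other thresholds. The edgeR, DESeq2 and limma (pseudocount 1) fits and those with a replicate block or a length trend removed were first tried on simulated counts. The simulated counts held no length trend, and the other alternatives and the permutation test were not tried on them. The deviations of same-numbered libraries had correlations of 0.076, -0.106 and 0.057. From 3 libraries per group these cannot decide whether the numbers pair the samples, and the main fit used no pairing.

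The 45 genes and the other lists were chosen with earlier results of these data known. All 45 were described by role, with values per library for the largest rises and falls and for members of each role. Of each other list, the 2 largest rises and 2 largest falls past the threshold were named. Promoter windows came from RefSeq (GRCm38.p6) and no coordinates were moved between builds.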

Additional observations from a re-analysis of the deposited data

How the results depend on the processing

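Of the 26 called genes, 17 kept their call and direction under all 17 alternative fits and 9 did not, namely Mcm5, Mcm6, Mcm10, Pole2, Fen1, Rrm2, Ccne1 and E2f1, which lost their call with the close pairs summed, and Rfc4, which lost it with the length trend removed. The count of lower genes ran from 16 to 26 over those fits, with the 26 in the fit without length and GC trends, beside 35.3% of all tested genes. The count of higher genes, 4 in the report beside 31.5% of all tested genes, was 2 with the close pairs summed (LLC alone replicates 1 and 2, and LLC with BMSCs replicates 2 and 3). It was 10 with the length trend removed and 13 with the length and GC trends removed, beside 35.1% and 35.9% of all tested genes. Leaving out 1 library at a time gave 3 to 7 higher genes, 19 to 23 lower genes and medians of -0.16 to -0.12, and the 7 arose without LLC alone replicate 3. An added absolute log2 fold change of 0.5 left 2 higher and 11 lower, beside 18.8% and 18% of all tested genes. An adjusted p under 0.001 left 2 higher and 10 lower, and the share over all tested genes was not computed for it. The causes were not tested.

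With the replicate number as a block, 4 genes were higher and 21 lower, and Rrm2 alone was lost (adjusted p = 0.0572). The correlations of same-numbered libraries were 0.076, -0.106 and 0.057. From 3 libraries per group such values cannot decide whether the numbers pair the samples.

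Over the log2 fold changes of single genes, 675 of 765 kept their side of the threshold and direction, 31 became significant, 30 lost significance and 36 changed sign, 7 of the 36 being also among the 31 and 0 in a gene called in the report. With the length trend removed, the changed signs were Gins4 0.170, Orc2 -0.024, Pola1 -0.111, Pold2 0.033, Pole -0.078, Rfc1 -0.140, Rfc2 0.124 and Tyms -0.001. With GC removed as well, they were Gins4 0.208, Orc2 -0.080, Pola1 -0.156, Pold2 0.097, Pole -0.054, Rfc1 -0.156 and Rfc2 0.162. Prim1 gave -0.001 with DESeq2, -0.027 with the pairs summed and -0.030 with upper-quartile scaling. Rfc1 gave -0.022 with upper-quartile scaling, and Rfc3 -0.009 and Tyms -0.002 with the pairs summed. Gins4 gave 0.001 without TMM and 0.002 with limma at either pseudocount, and Tyms -0.018 and -0.019 with limma at 1 and 0.1. Some genes changed sign in at least 1 fit with 1 library left out, and their ranges over all such fits follow. The log2 fold change ran from -0.045 to 0.029 for Gins4, -0.057 to 0.132 for Pola1 and -0.036 to 0.061 for Prim1. It ran from -0.005 to 0.070 for Tyms, -0.074 to 0.057 for Rfc1 and -0.118 to 0.032 for Rfc2.

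With 3 libraries per group, single genes rest on a spread shared across genes, and small changes are the least certain.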

Other observations

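Overlapping genes on the opposite strand were present for 10 of the 45 genes in the reference annotation, and reads within the overlap cannot be told apart without a known strand setting. Mcm7 overlaps Cops6 (log2 fold change of the partner -0.63) and Ap4m1 (0.36), Ccne2 overlaps Ints8 (0.40), Orc2 overlaps Nif3l1 (-0.85) and Fen1 overlaps Tmem258 (-0.40). Rfc4 overlaps Eif4a2 (0.82), Rfc5 overlaps Wsb2 (-0.25), Rfc2 overlaps Lat2 (-0.68), Orc6 overlaps Vps35 (-0.15), Gins2 overlaps Gse1 (-0.12) and Tk1 overlaps Afmid (0.03). The changes of Ccne2, Fen1, Orc2, Rfc4 and Rfc5 were opposite in sign to that of the partner, and that of Mcm7 to Ap4m1 but not to Cops6. Estimated counts more than 0.005 from a whole number were found for 10 of the 45 genes in at least 1 library. Of the genes with a partner, Orc2, Gins2, Rfc4 and Ccne2 had such counts in 6 libraries, Mcm7 in 4 and Tk1 in 3. Orc6, Rfc2, Rfc5 and Fen1 had them in 0. Pcna, Pola2, Tyms and E2f1, without a partner, had them as well.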
